A study of Mus musculus with 9 samples.

Results

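The subject is the RNA of the nuclear genes that build the mitochondrial respiratory chain and the ATP synthase, measured in mouse embryonic stem (ES) cells on 1-colour microarrays. A gene was a member if its probe set, the group of array probes that measures a transcript, carried exactly 1 gene symbol and that symbol began with Ndufa, Ndufb, Ndufc, Ndufs, Ndufv, Sdh, Uqcr, Atp5 or Cox4 to Cox8, pseudogenes apart. This gave 119 probe sets for 93 of the 19938 named genes. Of these, 90 were bright enough to be tested, among 13182 genes tested in all. The members were 6 core subunits, 29 accessory subunits and 7 assembly factors of complex I, 4 subunits and 4 assembly factors of complex II, 8 subunits of complex III, 18 of complex IV and 17 of complex V. The genes of the mitochondrial genome are not analysed here, nor is any nuclear subunit that shares its probe set with a further gene, such as Cox7c and Ndufb4.

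All cells were of the genotype Dgcr8 -/-. Dgcr8 is needed to cut the precursors of most microRNAs, so the cells lack most of their own. Mock cells were transfected with no microRNA, let-7c cells with 50 nM of a let-7c mimic and miR-294 cells with 50 nM of a miR-294 mimic. A mimic is a short synthetic RNA that stands in for the natural microRNA, and Dharmafect 1 was the transfection reagent. Every group was then kept without leukaemia inhibitory factor (LIF), which holds ES cells undifferentiated, and was harvested 12 h after transfection. Each of the 3 groups had 3 arrays, labelled as biological replicates. The labels do not say whether these came from separate cultures, so p-values measure only the spread between these samples. A group with an unrelated mimic is not analysed here, so an effect of any mimic as such cannot be told apart from that of let-7c or of miR-294.

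The respiratory chain passes electrons from NADH and succinate to oxygen and pumps protons across the inner mitochondrial membrane, and complex V uses the return of these protons to make ATP. Complex I takes electrons from NADH, complex II from succinate, complex III hands them to cytochrome c and complex IV to oxygen. Mouse ES cells make much of their ATP by glycolysis, and they also respire. Most subunits are nuclear genes whose proteins are imported and put together with a few proteins made inside the mitochondrion.

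The mimics differ in their seed, bases 2 to 8 of the mature strand, through which a microRNA pairs with its target RNAs. The mature strands are shown because the seed is what separates the treated groups, and its bases are in capitals. The sequences are those of RefSeq for the build GRCm38.p6; the labels do not name the strand that the mimics carry, and the usual guide strands were taken.
mmu-let-7c-5p: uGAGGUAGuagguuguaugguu
mmu-miR-294-3p: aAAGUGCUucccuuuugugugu
The let-7c strand is encoded at chr15:85706616-85706637 and at chr16:77599672-77599693, and the miR-294 strand at chr7:3220691-3220712, all on the plus strand. No seed matches were sought in the members' transcripts, and none of the differences described here is a direct effect shown by sequence.

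The labelled cell type was checked against its markers. All 11 ES cell markers looked at, among them Pou5f1, Sox2 and Nanog, were bright enough to be tested, and their mean log2 level per array was 11.73 to 11.77 in mock, 11.57 to 11.58 with let-7c and 11.83 to 11.90 with miR-294. Of the markers of other cell types, 5 of 8 of primitive endoderm, 4 of 6 of trophoblast, 5 of 6 of neurectoderm, 3 of 6 of mesendoderm, 5 of 8 of feeder fibroblasts and 1 of 4 of 2-cell-like cells were tested. Sox17, Pdgfra, Dab2, Cdx2, Elf5, Zic1, Lhx1, Mesp1, Dcn, Lum, Postn and Tcstv3 were too dim, and 3 more could not be matched. Among those tested, Sparc of the primitive endoderm list had group means of 11.73 to 12.15 and Fn1 of the fibroblast list 12.32 to 12.37. The ES markers moved with the treatment: with let-7c 0 of 11 were higher than in mock and 6 lower, with a median log2 difference of -0.23, and with miR-294 5 were higher and 1 lower, with a median of 0.07. Other cell types' markers moved as well. With let-7c Nes (0.76 ± 0.14, adjusted p = 0.00259), Eomes (0.38 ± 0.08, adjusted p = 0.00579), Gata4 (0.31 ± 0.05, adjusted p = 0.000945) and Sparc (0.14 ± 0.04, adjusted p = 0.0311) rose, and Tfap2c (-0.31 ± 0.06, adjusted p = 0.00385) fell. With miR-294 Evx1 (0.40 ± 0.08, adjusted p = 0.00243), Eomes (0.35 ± 0.08, adjusted p = 0.00514), Neurog2 (0.19 ± 0.06, adjusted p = 0.021) and Col3a1 (0.16 ± 0.06, adjusted p = 0.0372) rose, and Sparc (-0.27 ± 0.04, adjusted p = 0.000503) fell. The part of these markers in the members' differences was not tested.

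With miR-294 the RNA of the respiratory chain and ATP synthase genes was higher than in mock for 40 members and lower for 1, of 90 tested (44.4% and 1.11%). Over all genes tested, 20.7% were called higher and 21.1% lower in the same comparison. A gene was called where the Benjamini-Hochberg adjusted p of the limma fit over all genes was under 0.05. The differences were small. Their median over the 90 members was 0.14 on the log2 scale (1.10-fold) against 0.02 over all genes tested, and the largest was 0.55. By sign 75 of 90 members lay above mock, against 7299 of 13182 over all genes tested. Of the 41 called members, 40 had all miR-294 arrays on one side of all mock arrays. Calling genes by adjusted p favours such separation, and its share over all called genes was not counted. The members are short genes, with a median genomic span of 7.44 kb against 21.1 kb over the 13170 tested genes with a known span. Over those genes the miR-294 difference fell as span rose (Spearman rho -0.32), and over the 90 members rho was -0.24. For let-7c minus miR-294 rho over all genes was 0.21. The shares over all genes are not matched for span, and its part in the members' differences was not tested.

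With let-7c the picture was mixed. Of the 90 members, 10 were higher than in mock and 6 lower (11.1% and 6.67%), against 13.9% higher and 14.8% lower over all genes tested. The median difference of the members was 0.04, against 0.02 over all genes. By sign 55 of 90 lay above mock, against 7237 of 13182 over all genes tested. Both comparisons use the same mock arrays, so their values are not independent of each other.

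Set directly against each other, the mimics differed at 34 members. Of the 90, 31 were lower with let-7c than with miR-294 (34.4%) and 3 were higher (3.33%), against 24.5% lower and 26.2% higher over all genes tested. The median difference was -0.10, and that over all genes was -0.01. By sign 70 of 90 members were lower with let-7c, against 6752 of 13182 over all genes tested. None of the 34 called members had overlapping arrays between the let-7c and miR-294 groups. Here too the call itself favours separation, and no share over all called genes is given.

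The level of the whole group was followed array by array as the median over members of the value minus the gene's mean in mock. It was 0.01, 0.00 and -0.02 in the mock arrays, 0.06, 0.02 and 0.03 in the let-7c arrays and 0.18, 0.11 and 0.10 in the miR-294 arrays. The miR-294 arrays stood above all others, and replicate 1 was the highest of the 3. Over all genes tested the same measure lay between -0.00 and 0.03 on the 9 arrays. In bulk RNA of this kind, a smaller share of cells with a transcript and less of it per cell cannot be told apart.

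**Figure D1:**
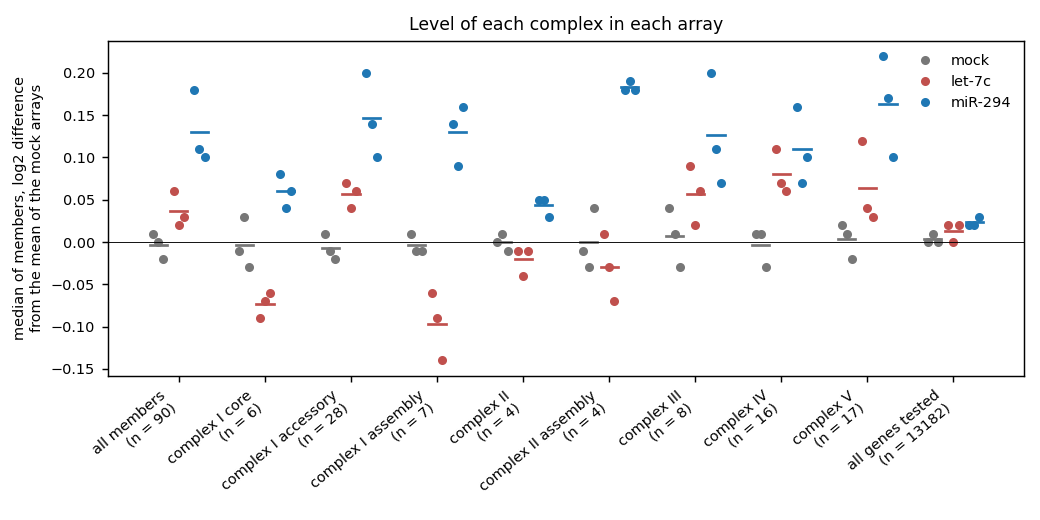
Level of each complex on each array, as the median over its tested members of the log2 value minus the gene's mean in mock; points are arrays, bars the mean of 3 arrays, and n the number of genes. The miR-294 arrays lay at 0.10 to 0.18 over all 90 members, above mock and let-7c, while complex I core and complex I assembly factors lay below mock on all 3 let-7c arrays.

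The counts per complex that follow rest on few genes and are to be read beside the shares over all genes tested given above. Complex I is the largest of the complexes. Its core subunits carry the flavin and the iron-sulphur clusters along which electrons travel, and its accessory subunits surround and steady the core. Of the 6 core subunits tested, 2 rose with miR-294, with a median difference of 0.05 over the 6. With let-7c 0 rose and 1 fell, with a median of -0.08. In the direct comparison 4 of 6 were lower with let-7c and the median was -0.18. The 4 were Ndufv2, Ndufs1, Ndufs7 and Ndufs3.

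Ndufv2, an iron-sulphur subunit of the NADH-binding module, read 10.50, 10.46 and 10.49 in mock, 10.30, 10.41 and 10.43 with let-7c and 10.68, 10.64 and 10.60 with miR-294. The groups did not overlap, let-7c lying lowest and miR-294 highest. The difference from mock was 0.16 ± 0.05 (SE) with miR-294 (adjusted p = 0.0211) and -0.10 ± 0.05 with let-7c (adjusted p = 0.126), and the direct difference was -0.26 ± 0.05 (adjusted p = 0.000747). Without miR-294 replicate 1 or 2, or without mock replicate 2, the adjusted p against mock was 0.0643, 0.0523 and 0.0696.

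Ndufs1, the largest core subunit, read 10.85, 10.91 and 10.84 in mock, 10.64, 10.78 and 10.73 with let-7c and 10.93, 10.91 and 10.89 with miR-294. The let-7c arrays lay below all others, and the difference from mock was -0.15 ± 0.05 (adjusted p = 0.0336). That call did not survive the loss of let-7c replicate 1 (adjusted p = 0.105), let-7c replicate 3 (0.063) or mock replicates 1, 2 or 3 (0.0652, 0.119 and 0.0614), nor quantile normalization (0.0639), no filter (0.0717) or a fit of 2 groups only (0.0553). Ndufs3, a core subunit of the arm that reaches into the matrix, was 0.12 ± 0.04 above mock with miR-294 (adjusted p = 0.0302). Leaving out any of the 3 miR-294 or 3 mock arrays took that adjusted p to between 0.0509 and 0.0964. Ndufv1, which binds NADH and the flavin, differed from mock by -0.00 ± 0.04 with let-7c and by -0.05 ± 0.04 with miR-294, and was called in neither.

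Ndufs7, which carries the iron-sulphur cluster nearest the ubiquinone site, read 10.57, 10.61 and 10.52 in mock, 10.42, 10.40 and 10.49 with let-7c and 10.63, 10.61 and 10.65 with miR-294. The let-7c arrays were below all others, and mock and miR-294 overlapped. It was called in the direct comparison alone, at -0.19 ± 0.05 (adjusted p = 0.00439), and was -0.13 ± 0.05 from mock with let-7c (adjusted p = 0.058).

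Of the 28 accessory subunits tested, 12 rose with miR-294 and 1 fell, with a median difference of 0.15. With let-7c 3 rose and 1 fell, with a median of 0.06. In the direct comparison 9 were lower with let-7c and 1 higher, with a median of -0.08. The Ndufb subunits, which lie in the membrane arm, had 4 of 9 higher with miR-294 and 6 of 9 lower with let-7c than with miR-294. The members named here are the called ones with the largest differences.

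Ndufs6, a small zinc-binding subunit of the matrix arm, read 10.22, 10.12 and 10.13 in mock, 10.32, 10.32 and 10.23 with let-7c and 10.59, 10.45 and 10.39 with miR-294. The miR-294 arrays were above all others. Its difference from mock was 0.32 ± 0.06 with miR-294 (adjusted p = 0.00128) and 0.13 ± 0.06 with let-7c (adjusted p = 0.117). Ndufa2 of the matrix arm rose by 0.31 ± 0.08 (adjusted p = 0.00817), Ndufb6 of the membrane arm by 0.30 ± 0.05 (adjusted p = 0.000779) and Ndufc1, also of the membrane arm, by 0.27 ± 0.06 (adjusted p = 0.00626). With let-7c these 3 read 0.16 ± 0.08, 0.11 ± 0.05 and 0.13 ± 0.06 against mock and were not called.

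Ndufb7, a membrane-arm subunit that faces the intermembrane space, was the only member called in opposite directions by the mimics. It read 9.72, 9.75 and 9.62 in mock, 9.50, 9.36 and 9.45 with let-7c and 9.97, 9.91 and 9.86 with miR-294. The groups were fully separate, with mock between the mimics. It was -0.26 ± 0.06 from mock with let-7c (adjusted p = 0.00512) and 0.22 ± 0.06 with miR-294 (adjusted p = 0.00868). The direct difference of -0.48 ± 0.06 (adjusted p = 2.59e-05), which is 1.39-fold more RNA with miR-294, was the largest among the members.

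Ndufa5, a subunit of the matrix arm, was the only member called lower with miR-294. It read 9.19, 9.25 and 9.15 in mock, 9.35, 9.26 and 9.24 with let-7c and 9.10, 9.02 and 9.05 with miR-294. The miR-294 arrays lay below all others. The difference from mock was small, -0.14 ± 0.05 (adjusted p = 0.0387), and the call was lost without miR-294 replicate 2 (adjusted p = 0.121) or 3 (0.0885), without mock replicate 1 (0.0804) or 2 (0.141), and after quantile normalization (0.0957), centring on the 75th percentile (0.0765) or with no filter (0.0754). Its direct difference of 0.23 ± 0.05 (adjusted p = 0.00226) was called under every alternative run.

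Among the accessory subunits that rose with let-7c, Ndufa1, a membrane subunit that complex I needs for its assembly, was 0.20 ± 0.06 above mock (adjusted p = 0.0267), Ndufb9 0.18 ± 0.06 (adjusted p = 0.0487) and Ndufb11 0.14 ± 0.04 (adjusted p = 0.0369). With miR-294 the same genes read 0.16 ± 0.06, 0.15 ± 0.06 and 0.17 ± 0.04, and only Ndufb11 was called (adjusted p = 0.0102). Ndufb9 had overlapping arrays between let-7c and mock. None of these let-7c calls held without mock replicate 2, where the adjusted p was 0.106 for Ndufa1, 0.142 for Ndufb9 and 0.127 for Ndufb11.

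Ndufb10 and Ndufb3, both of the membrane arm, were called in the direct comparison alone. Ndufb10 read 7.93, 7.94 and 7.94 in mock, 7.73, 7.84 and 7.94 with let-7c and 8.03, 8.20 and 7.97 with miR-294, and Ndufb3 read 7.78, 7.61 and 7.75, then 7.55, 7.79 and 7.59, then 7.89, 7.92 and 7.81. In both genes all miR-294 arrays lay above the let-7c arrays. The direct differences were -0.23 ± 0.07 in each, with adjusted p of 0.0138 and 0.0166 from the limma fit. Without let-7c replicate 1 or miR-294 replicate 2 these were 0.0549 and 0.0601 for Ndufb10 and 0.0638 and 0.0584 for Ndufb3, which was 0.0628 also without let-7c replicate 3.

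The assembly factors of complex I build its modules and are not part of the finished enzyme. Of the 7 tested, 2 rose with miR-294, 2 fell with let-7c and 4 were lower with let-7c than with miR-294. Their medians were 0.14, -0.12 and -0.24 in that order, and all 7 were lower with let-7c by sign in the direct comparison.

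Ndufaf4, which acts with Ndufaf3 in an early step of the matrix arm's assembly, read 8.54, 8.60 and 8.55 in mock, 8.58, 8.47 and 8.42 with let-7c and 8.97, 8.97 and 8.92 with miR-294. The 3 miR-294 arrays stood apart, while mock and let-7c overlapped. The rise with miR-294 was 0.39 ± 0.05 (1.31-fold, adjusted p = 9.55e-05), the let-7c difference -0.08 ± 0.05 (adjusted p = 0.278) and the direct difference -0.47 ± 0.05 (adjusted p = 1.34e-05). Ndufaf2, an assembly chaperone related to the subunit Ndufa12, rose by 0.31 ± 0.06 with miR-294 (adjusted p = 0.00157) and read 0.07 ± 0.06 with let-7c.

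Ndufaf7, a methyltransferase that acts on a core subunit during assembly, had the largest fall of any member with let-7c. It read 9.30, 9.28 and 9.28 in mock, 9.01, 8.97 and 8.97 with let-7c and 9.39, 9.19 and 9.17 with miR-294. The let-7c arrays were below all others, and the miR-294 arrays lay on both sides of mock. The fall was -0.31 ± 0.06 (adjusted p = 0.00257), which is 1.24-fold more RNA in mock. Ndufaf1, a membrane-arm assembly factor, was -0.21 ± 0.06 from mock with let-7c (adjusted p = 0.0242), and that call was lost without let-7c replicate 1 (0.0841) or 2 (0.0611) or mock replicate 2 (0.101). Its direct difference, -0.35 ± 0.06 (adjusted p = 0.000497), did not lose its call under any alternative.

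Complex II is the succinate dehydrogenase shared with the citric acid cycle. It is the one complex of the chain encoded wholly in the nucleus, by Sdha, which carries the flavin, Sdhb, which carries the iron-sulphur clusters, and the membrane anchors Sdhc and Sdhd. Only Sdhd rose with miR-294. It read 10.00, 10.11 and 10.15 in mock, 10.13, 10.12 and 10.19 with let-7c and 10.63, 10.54 and 10.56 with miR-294, a clear gap above the rest. The rise was 0.49 ± 0.05 (1.40-fold, adjusted p = 2.39e-05), and let-7c lay 0.06 ± 0.05 from mock (adjusted p = 0.437).

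The other complex II subunits stayed close to mock. With miR-294 Sdha was -0.04 ± 0.04, Sdhb 0.05 ± 0.05 and Sdhc 0.03 ± 0.04 from mock, and with let-7c they were -0.09 ± 0.04, -0.08 ± 0.05 and 0.04 ± 0.04. None of the 6 was called. Sdhb was lower with let-7c than with miR-294 by -0.14 ± 0.05 (adjusted p = 0.0256), a call lost without let-7c replicate 1 (0.0602) or 2 (0.0708) or miR-294 replicate 2 (0.0722) or 3 (0.0603). The median over the 4 subunits was 0.04 with miR-294, and with let-7c it was -0.02, or 0.03 after quantile normalization.

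The complex II assembly factors are small proteins that insert the flavin or the iron-sulphur clusters. With miR-294 3 of 4 rose, and with let-7c 1 did. Sdhaf1, which helps to load the iron-sulphur subunit, rose with both mimics: it read 9.00, 8.83 and 8.88 in mock, 9.19, 9.27 and 9.31 with let-7c and 9.09, 9.08 and 9.17 with miR-294. The groups did not overlap, and let-7c was the highest. The differences were 0.35 ± 0.06 with let-7c (adjusted p = 0.000874) and 0.21 ± 0.06 with miR-294 (adjusted p = 0.0109). The direct difference of 0.14 ± 0.06 (adjusted p = 0.0496) lost its call under quantile normalization (0.0878), under centring (0.0868), and without let-7c replicate 2 (0.109) or 3 (0.154), miR-294 replicate 1 (0.114) or 2 (0.141) or mock replicate 3 (0.065).

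Sdhaf2, needed to attach the flavin to Sdha, read 8.88, 8.97 and 9.03 in mock, 8.77, 8.78 and 8.87 with let-7c and 9.20, 9.18 and 9.29 with miR-294. The groups were separate, let-7c lowest and miR-294 highest. It rose by 0.27 ± 0.05 with miR-294 (adjusted p = 0.00232) and was -0.15 ± 0.05 with let-7c (adjusted p = 0.0539), and the direct difference was -0.42 ± 0.05 (adjusted p = 5.83e-05). Sdhaf4, a chaperone of Sdha, was 0.16 ± 0.06 above mock with miR-294 (adjusted p = 0.0481), and the mean of its probe sets was not called (adjusted p = 0.563). The probe set not used was the brighter in mock (6.96 against 6.89) and read -0.07 ± 0.08 with miR-294 (adjusted p = 0.477). Both were dim, with group means under the array medians of 7.364 to 7.414. For the probe set used, the adjusted p was also between 0.0553 and 0.144 without miR-294 replicate 1 or 2, without any of mock replicates 1, 2 and 3 or without let-7c replicate 1.

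Complex III, the cytochrome bc1 complex, held the members with the largest rises. Of its 8 subunits tested, 4 rose with miR-294 and all 8 lay above mock by sign, with a median of 0.11. With let-7c 1 rose and 1 fell, and in the direct comparison 3 were lower with let-7c, with a median of -0.12.

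Uqcrq, a small subunit that sits beside cytochrome b, had the largest rise of all 90 members. It read 9.33, 9.35 and 9.31 in mock, 9.46, 9.36 and 9.42 with let-7c and 9.86, 9.95 and 9.85 with miR-294. The miR-294 arrays were above every other array. The rise was 0.55 ± 0.05 (1.47-fold, adjusted p = 4.92e-06), the let-7c difference 0.08 ± 0.05 (adjusted p = 0.206) and the direct difference -0.47 ± 0.05 (adjusted p = 7.58e-06).

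Uqcr10, a further small membrane subunit, followed. It read 9.45, 9.32 and 9.42 in mock, 9.45, 9.40 and 9.47 with let-7c and 10.02, 9.88 and 9.83 with miR-294. Mock and let-7c overlapped and miR-294 lay above both, by 0.51 ± 0.06 over mock (1.43-fold, adjusted p = 4.74e-05). Uqcr11, the smallest subunit, was 0.22 ± 0.08 above mock with miR-294 (adjusted p = 0.0379), but its arrays overlapped with mock. That call was lost without miR-294 replicate 1 (0.132) or 2 (0.0724), mock replicate 2 (0.116) or 3 (0.138) or let-7c replicate 3 (0.0511).

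Other subunits of complex III behaved differently. Uqcrc1, a core protein on the matrix side, read 11.70, 11.71 and 11.60 in mock, 11.45, 11.42 and 11.47 with let-7c and 11.69, 11.74 and 11.72 with miR-294. Only let-7c stood apart, below all other arrays, by -0.22 ± 0.05 from mock (adjusted p = 0.00407) and -0.27 ± 0.05 from miR-294 (adjusted p = 0.000459). Uqcrfs1, the Rieske iron-sulphur protein, was 0.09 ± 0.06 from mock with let-7c and 0.08 ± 0.06 with miR-294, neither called. Uqcrh, the hinge protein that helps cytochrome c to dock, rose with both, by 0.18 ± 0.05 with let-7c (adjusted p = 0.0204) and 0.15 ± 0.05 with miR-294 (adjusted p = 0.0353). Without mock replicate 2 its adjusted p was 0.0576 and 0.0812, without mock replicate 3 it was 0.0755 and 0.114, without let-7c replicate 1 the first was 0.0586, and without miR-294 replicate 1 the second was 0.121.

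Complex IV, cytochrome c oxidase, passes the electrons to oxygen. Here Ndufa4 is counted with it, because its protein is a subunit of complex IV despite its name. Of 16 members tested, 7 rose with miR-294 and 0 fell, with a median of 0.12. With let-7c 1 rose and 0 fell, with a median of 0.06. In the direct comparison 3 were lower with let-7c (18.8%, against 24.5% over all genes tested) and 1 higher. The direct median was -0.04, or 0.02 after quantile normalization and 0.01 without miR-294 replicate 1.

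Among the subunits used in most tissues, Cox7a2l, whose protein links complexes III and IV into supercomplexes, rose by 0.30 ± 0.05 with miR-294 (adjusted p = 0.000544). Its dimmer probe set rose with both mimics, by 0.26 ± 0.06 with let-7c (adjusted p = 0.00907) and 0.32 ± 0.06 with miR-294 (adjusted p = 0.00155). The direct difference of the gene was -0.18 ± 0.05 (adjusted p = 0.0104). It was not called in the dimmer probe set (-0.06 ± 0.06, adjusted p = 0.42) or with the mean of probe sets (0.0808). Cox7b, needed to assemble the enzyme, read 10.86, 10.98 and 10.90 in mock, 10.90, 10.93 and 11.01 with let-7c and 11.27, 11.19 and 11.15 with miR-294. Only the miR-294 arrays were apart, 0.29 ± 0.05 above mock (adjusted p = 0.00105).

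Cox8a, a small membrane subunit, was 0.21 ± 0.06 above mock with miR-294 (adjusted p = 0.0232) and Cox5a, which faces the matrix, 0.16 ± 0.05 (adjusted p = 0.0221). Neither kept its call without miR-294 replicate 1 (0.0786 and 0.0686), without miR-294 replicate 2 (0.0753 and 0.0626) or without mock replicate 3 (0.0698 and 0.0914), and Cox8a lost it also without mock replicate 2 (0.0745). Cox4i1, a nuclear subunit at which ATP acts on the enzyme, was 0.07 ± 0.05 from mock with let-7c and 0.06 ± 0.05 with miR-294, and Ndufa4 was 0.11 ± 0.05 and 0.04 ± 0.05. None of these 4 values was called.

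Some complex IV members are isoforms of restricted tissues. Cox6b2, known as the testis isoform of the subunit that clamps the oxidase dimer, was the member that rose most with let-7c. It read 9.46, 9.47 and 9.50 in mock, 9.90, 9.81 and 9.85 with let-7c and 9.48, 9.40 and 9.27 with miR-294. The let-7c arrays lay above all others and miR-294 overlapped with mock. The rise was 0.38 ± 0.06 (1.30-fold, adjusted p = 0.000577), miR-294 was -0.09 ± 0.06 from mock (adjusted p = 0.192), and the direct difference of 0.47 ± 0.06 (adjusted p = 2.92e-05) was the largest in that direction.

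Cox6a2, the isoform of heart and muscle, was 0.19 ± 0.06 above mock with miR-294 (adjusted p = 0.0276). Its call was lost without miR-294 replicate 1 (0.0544) or 2 (0.0812) or mock replicate 1 (0.101) or 2 (0.074). Cox4i2, an isoform of the lung, was 0.17 ± 0.06 above mock with miR-294 (adjusted p = 0.0548), and with the replicate number as a block the adjusted p was 0.0249. Both genes were dim, Cox6a2 at 7.65 to 7.93 and Cox4i2 at 7.44 to 7.77, little above the array medians of 7.364 to 7.414. Cox7a1 was -0.03 ± 0.05 from mock with miR-294 and Cox8c 0.10 ± 0.06, and neither was called. Cox7b2, at 5.16 to 5.41 on all arrays, and Cox8b, at 6.38 to 6.66, were too dim to be tested. So was Ndufa4l2, at 6.48 to 7.01, which by its name is counted here with the accessory subunits of complex I.

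Complex V is the ATP synthase. Protons drive a ring of c subunits in the membrane, the ring turns a stalk, and the catalytic F1 part makes ATP while the peripheral stalk holds it still. Of 17 members tested, 9 rose with miR-294 and 0 fell, with a median of 0.18. With let-7c 4 rose and 1 fell, with a median of 0.06. In the direct comparison 5 were lower with let-7c (29.4%, against 24.5% over all genes tested) and 0 higher, with a median of -0.08.

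By position in the enzyme, 2 of 3 c ring genes rose with miR-294, 2 of 5 genes of the F1 part, 2 of 4 of the peripheral stalk and 3 of 5 of the small membrane subunits. Their median differences were 0.34, 0.02, 0.10 and 0.20. These groups are too small to be ranked. Atp5b, the catalytic beta subunit of F1, read 13.46, 13.48 and 13.49 in mock, 13.38, 13.43 and 13.46 with let-7c and 13.42, 13.43 and 13.43 with miR-294. It was -0.05 ± 0.04 from mock with either mimic and was not called.

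The Atp5g genes encode the same mature c subunit and differ in the leader that takes it into the mitochondrion. Atp5g1 read 10.27, 10.23 and 10.18 in mock, 10.36, 10.28 and 10.26 with let-7c and 10.71, 10.64 and 10.66 with miR-294. The miR-294 arrays were far above the rest, by 0.44 ± 0.05 over mock (1.36-fold, adjusted p = 2.93e-05), and let-7c was 0.07 ± 0.05 from mock (adjusted p = 0.297). Atp5g3 read 11.19, 11.22 and 11.19 in mock, 11.47, 11.43 and 11.40 with let-7c and 11.59, 11.54 and 11.50 with miR-294. Both mimics lay above mock without overlap, by 0.24 ± 0.04 with let-7c (adjusted p = 0.00231) and 0.34 ± 0.04 with miR-294 (adjusted p = 9.17e-05), and the direct difference was -0.11 ± 0.04 (adjusted p = 0.0558).

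Among the small membrane subunits, which shape the synthase dimer, Atp5k rose by 0.29 ± 0.07 with let-7c (adjusted p = 0.0111) and 0.34 ± 0.07 with miR-294 (adjusted p = 0.00243). Atp5j2 rose by 0.15 ± 0.04 (adjusted p = 0.0218) and 0.29 ± 0.04 (adjusted p = 0.000222). Its direct difference of -0.15 ± 0.04 was called (adjusted p = 0.0127) but not after quantile normalization (0.122), while that of Atp5k, -0.06 ± 0.07, was not. Atp5j, a coupling factor of the peripheral stalk, was 0.16 ± 0.05 above mock with let-7c (adjusted p = 0.0354), and without mock replicate 2 the let-7c calls of Atp5j and Atp5j2 were lost (0.102 and 0.0662). They were lost also without mock replicate 1 (0.0536 and 0.0717) or let-7c replicate 3 (0.0855 and 0.056), and that of Atp5j without let-7c replicate 1 (0.114) or mock replicate 3 (0.0974).

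Atp5e, the epsilon subunit at the foot of the F1 part, read 9.49, 9.45 and 9.40 in mock, 9.51, 9.40 and 9.46 with let-7c and 9.67, 9.62 and 9.73 with miR-294. Only miR-294 stood apart, 0.23 ± 0.05 above mock (adjusted p = 0.00345). Atp5o, the part of the peripheral stalk that grips F1, rose by 0.18 ± 0.05 with miR-294 (adjusted p = 0.0135, or 0.0551 without mock replicate 3) and was 0.02 ± 0.05 from mock with let-7c. Their direct differences were -0.21 ± 0.05 (adjusted p = 0.00323) and -0.16 ± 0.05 (adjusted p = 0.0198), and that of Atp5o lost its call after quantile normalization (0.0663) or without miR-294 replicate 1 (0.0518).

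Atp5md, a small subunit that helps to keep the synthase stable, was the only complex V member called lower with let-7c than in mock. It read 11.22, 11.41 and 11.37 in mock, 10.89, 11.22 and 11.10 with let-7c and 11.61, 11.46 and 11.51 with miR-294. The let-7c and mock arrays overlapped near 11.22, and miR-294 lay above both. The difference from mock was -0.26 ± 0.08 with let-7c (adjusted p = 0.0343) and 0.19 ± 0.08 with miR-294 (adjusted p = 0.083), and the direct difference was -0.46 ± 0.08 (adjusted p = 0.00071). Without let-7c replicate 1 or 3, or mock replicate 2 or 3, the adjusted p of the let-7c call was 0.111, 0.065, 0.116 and 0.0971. Atpif1, the inhibitor that blocks the synthase from running backwards, is not a member by name and was called in neither comparison with mock, at 0.07 ± 0.05 with let-7c and 0.11 ± 0.05 with miR-294.

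**Figure D2:**
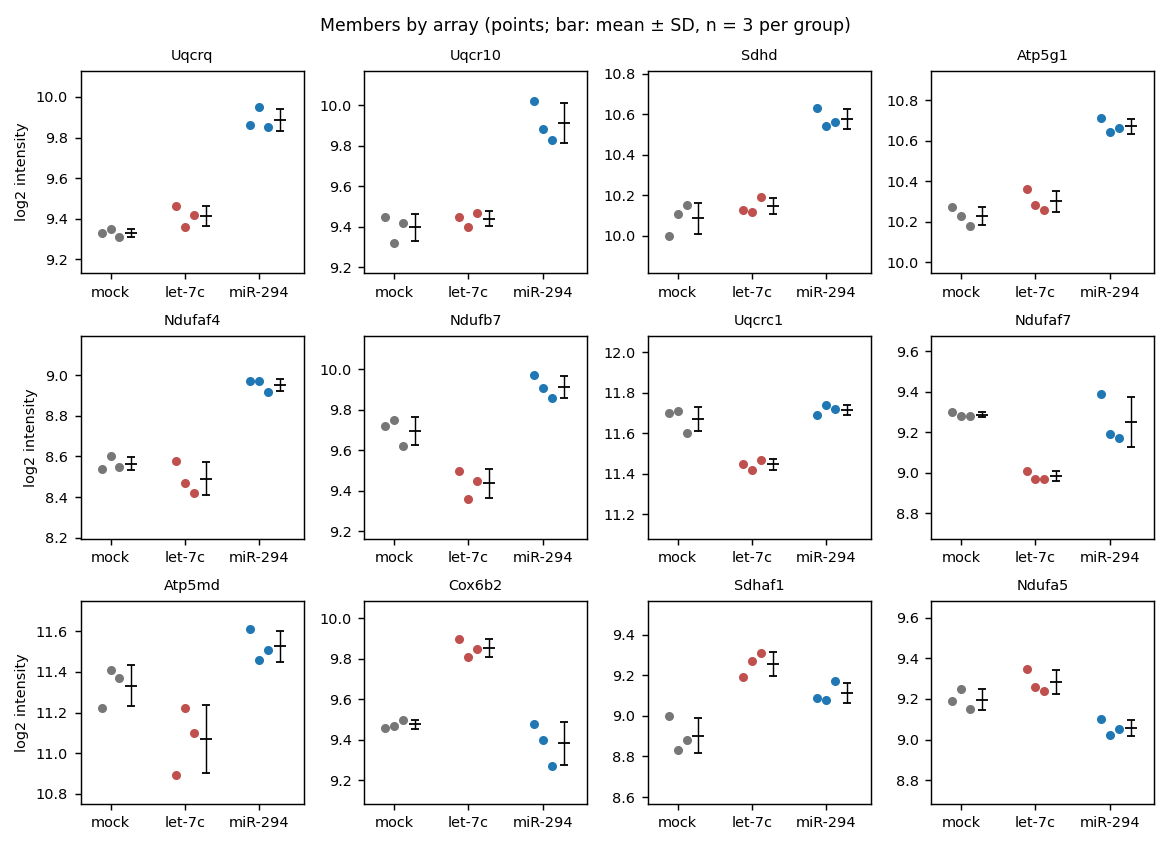
Log2 intensity of 12 members on every array, as points for the 3 arrays of each group with the mean ± SD beside them; each panel has its own axis. In the top row and in Ndufaf4 the miR-294 arrays stand above the rest, in Uqcrc1 and Ndufaf7 the let-7c arrays stand below, and in Cox6b2 they stand above.

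Across all complexes, 32 members were called higher with miR-294 and not called with let-7c, and in the direct comparison 19 of these 32 were lower with let-7c. Such patterns were not counted over all genes tested, so these counts only describe the members. A further 7 members were higher with both mimics: Atp5g3, Atp5j, Atp5j2, Atp5k, Ndufb11, Sdhaf1 and Uqcrh. Cox6b2, Ndufa1 and Ndufb9 were higher with let-7c alone by call, and Atp5md, Ndufaf1, Ndufaf7, Ndufs1 and Uqcrc1 were lower with let-7c alone by call. These 5 were all lower with let-7c in the direct comparison, whereas of the 3 only Cox6b2 differed directly. The 41 members called in neither comparison with mock included Atp5b, Sdha, Ndufv1 and Cox4i1.

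The let-7c calls rested on few arrays. Of the 16, 7 were kept under every alternative: Atp5g3, Atp5k, Cox6b2, Sdhaf1, Ndufaf7, Ndufb7 and Uqcrc1. Without mock replicate 2 the count fell from 10 higher and 6 lower to 4 and 3, without let-7c replicate 1 to 5 and 3, without mock replicate 3 to 5 and 4, and without let-7c replicate 3 to 6 and 6, and with no filter on dim genes to 5 and 3. Of the 41 miR-294 calls, 25 were kept under every alternative, all of them rises, and leaving out any single array left between 27 and 42 members called higher. The fewest remained without miR-294 replicate 1, the highest array of its group. Of the 34 direct calls, 22 were kept, 20 lower and 2 higher with let-7c, and without miR-294 replicate 1 the count higher with let-7c was 5.

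**Figure D3:**
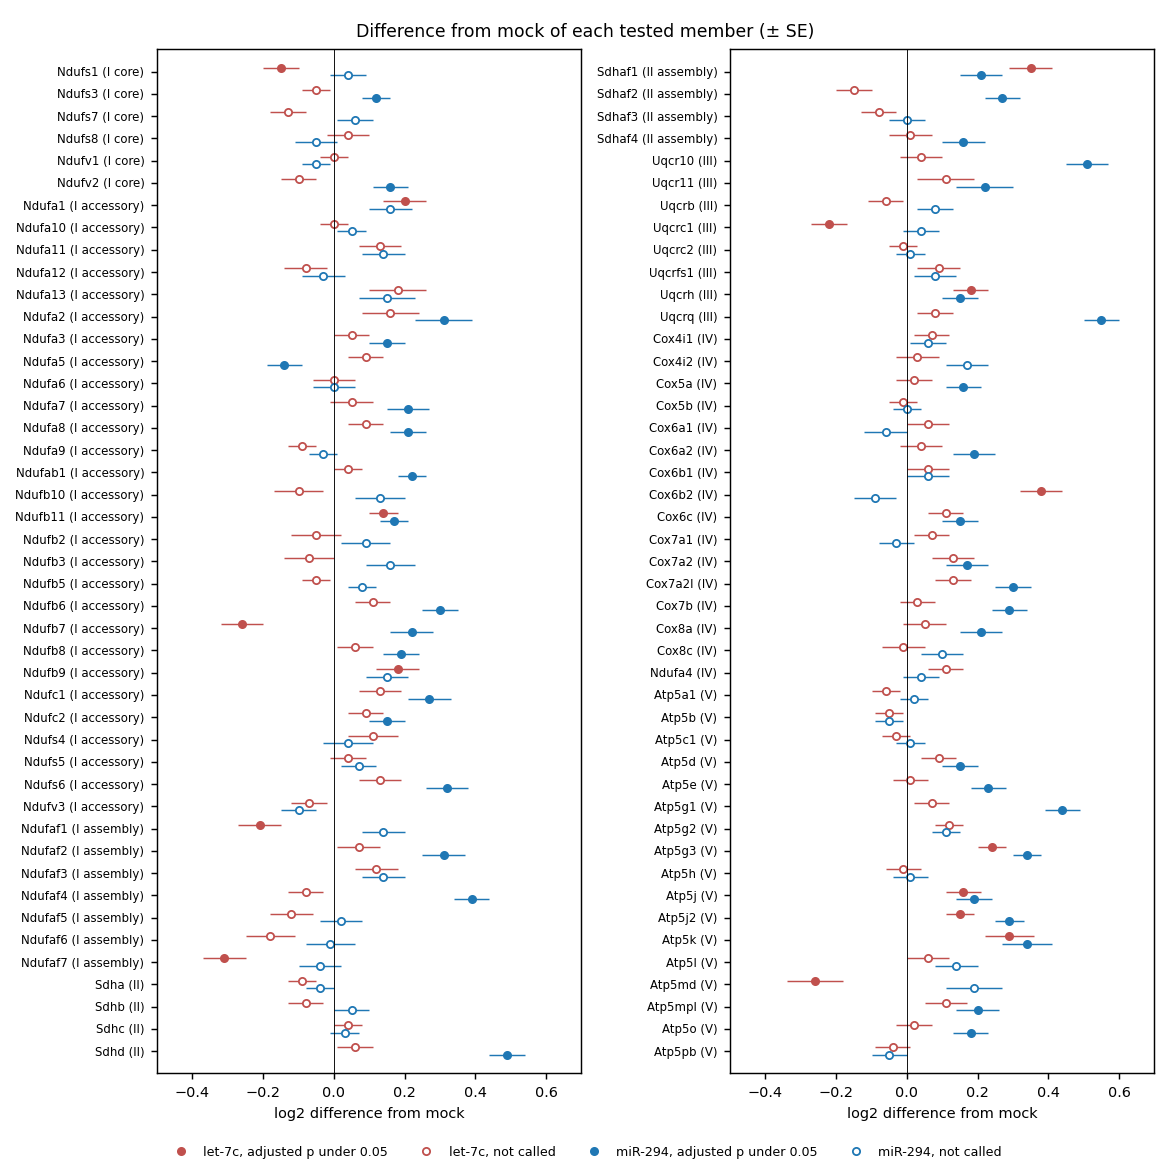
Log2 difference from mock with its standard error for each of the 90 tested members, ordered by complex, with let-7c and miR-294 in separate colours and filled points where the adjusted p was under 0.05. Filled miR-294 points lie right of 0 except Ndufa5, while filled let-7c points lie on both sides, from -0.31 in Ndufaf7 to 0.38 in Cox6b2.

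Other genes of the pathway were read from lists. Over all genes tested, 20.7% rose and 21.1% fell with miR-294, and 13.9% rose and 14.8% fell with let-7c. Directly, 24.5% were lower with let-7c and 26.2% higher. A share of a list near these says little about its genes. The list of regulators holds factors for nuclear genes of the mitochondrion and factors that act on mitochondrial DNA or ribosomes. Of the 13 tested, with let-7c 0 rose and 9 fell, with a median of -0.31, and with miR-294 7 rose and 2 fell, with a median of 0.13. Directly, 10 of 13 were lower with let-7c and 0 higher. Tfam, which packages and transcribes mitochondrial DNA, read 8.75, 8.95 and 8.93 in mock, 8.44, 8.62 and 8.56 with let-7c and 9.23, 9.29 and 9.29 with miR-294. The groups did not overlap, and the differences from mock were -0.34 ± 0.06 with let-7c (adjusted p = 0.00278) and 0.39 ± 0.06 with miR-294 (adjusted p = 0.000571).

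Pprc1, a co-activator of respiratory genes related to PGC-1, was -0.42 ± 0.05 from mock with let-7c (adjusted p = 0.000233) and 0.34 ± 0.05 with miR-294 (adjusted p = 0.000422). Mycn, a transcription factor of growth, was -1.16 ± 0.04 (adjusted p = 4.87e-08) and 0.19 ± 0.04 (adjusted p = 0.00401), and its relative Myc -0.42 ± 0.11 (adjusted p = 0.0191) and 0.80 ± 0.11 (adjusted p = 0.000234). Tfb1m, a methyltransferase of the mitochondrial ribosome, fell with both, at -0.80 ± 0.05 from mock with let-7c (adjusted p = 3.74e-06) and -0.17 ± 0.05 (adjusted p = 0.027). Tfb2m, a factor that starts mitochondrial transcription, also fell with both, at -0.42 ± 0.06 (adjusted p = 0.000319) and -0.37 ± 0.06 (adjusted p = 0.00033). Nrf1, which binds many respiratory promoters, was -0.17 ± 0.06 with let-7c (adjusted p = 0.0454) and was not called with miR-294. The part of these regulators in the members' differences was not tested.

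**Figure D4:**
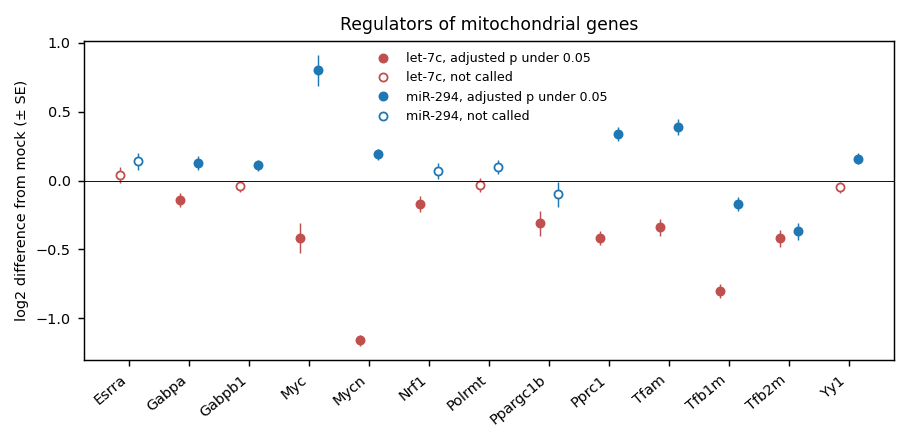
Log2 difference from mock with its standard error for the 13 tested regulators of mitochondrial genes, with let-7c and miR-294 in separate colours and filled points where the adjusted p was under 0.05. With let-7c 9 fell and 0 rose, and with miR-294 7 rose and 2, Tfb1m and Tfb2m, fell.

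Of the 32 tested assembly factors that the member rule does not take in, 13 rose and 2 fell with miR-294 (median 0.09). With let-7c 4 rose and 6 fell (median -0.01). Directly, 14 were lower with let-7c and 1, Tmem126b, was higher (median -0.11). Tmem126b, an assembly factor of the complex I membrane arm, read 9.85, 9.87 and 9.80 in mock, 10.17, 10.13 and 10.19 with let-7c and 9.21, 9.14 and 9.09 with miR-294. The groups did not overlap, with let-7c highest and miR-294 lowest. It was 0.32 ± 0.05 from mock with let-7c (adjusted p = 0.000514) and -0.69 ± 0.05 with miR-294 (adjusted p = 1.02e-06). Cox17, a copper chaperone of complex IV, rose with both, by 0.21 ± 0.06 (adjusted p = 0.0277) and 0.36 ± 0.06 (adjusted p = 0.000835). Atpaf1, a chaperone of the F1 part, fell with both, at -0.39 ± 0.04 (adjusted p = 8.94e-05) and -0.19 ± 0.04 (adjusted p = 0.00402). Ecsit, of complex I assembly, was 0.35 ± 0.06 above mock with miR-294 (adjusted p = 0.00045), and Cox10, of haem synthesis for complex IV, was -0.25 ± 0.04 from mock with let-7c (adjusted p = 0.00207).

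The citric acid cycle supplies the chain with NADH and succinate. Of 15 citric acid cycle genes tested, 1 rose and 3 fell with miR-294 (median -0.02), and 0 rose and 3 fell with let-7c (median -0.05). Cs, citrate synthase, read 11.85, 11.77 and 11.74 in mock, 11.74, 11.68 and 11.74 with let-7c and 11.20, 11.15 and 11.15 with miR-294. The miR-294 arrays were below all others, by -0.62 ± 0.05 from mock (adjusted p = 2.06e-06). Mdh2, which makes oxaloacetate, was -0.39 ± 0.04 from mock with miR-294 (adjusted p = 4.09e-05). Pdha1, of the pyruvate dehydrogenase complex, rose by 0.16 ± 0.04 (adjusted p = 0.0078). The 3 that fell with let-7c were Dlst (-0.24 ± 0.04, adjusted p = 0.00118), Dlat (-0.17 ± 0.04, adjusted p = 0.00919) and Suclg2 (-0.17 ± 0.05, adjusted p = 0.0184).

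Of 8 electron carriers and entry enzymes tested, 3 rose and 1 fell with miR-294 (median 0.05), and 0 rose and 1 fell with let-7c (median -0.04). Dhodh, which passes electrons from pyrimidine synthesis to ubiquinone, was 0.58 ± 0.05 above mock with miR-294 (adjusted p = 5.25e-06) and -0.18 ± 0.05 with let-7c (adjusted p = 0.0186). With miR-294 Prodh, of proline breakdown, was 0.26 ± 0.05 above mock (adjusted p = 0.002) and Etfdh, of fatty acid breakdown, -0.26 ± 0.05 from it (adjusted p = 0.00101). Cyc1, the cytochrome c1 subunit of complex III, whose name falls outside the member rule, was 0.14 ± 0.04 above mock with miR-294 (adjusted p = 0.0209).

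Of 12 genes of ubiquinone synthesis, 2 rose and 3 fell with miR-294 and 1 rose and 0 fell with let-7c. The falls were in Coq10b (-0.54 ± 0.08, adjusted p = 0.000187), Coq9 (-0.44 ± 0.06, adjusted p = 0.000143) and Coq10a (-0.23 ± 0.06, adjusted p = 0.00971), and Coq7 rose with let-7c (0.16 ± 0.04, adjusted p = 0.0192). Of 8 genes of mitochondrial dynamics and mass, 1 rose and 3 fell with miR-294 and 1 rose and 2 fell with let-7c. Mfn2, which fuses mitochondria at their outer membrane, read 10.04, 10.04 and 10.10 in mock, 10.22, 10.12 and 10.31 with let-7c and 9.11, 9.09 and 9.18 with miR-294. The miR-294 arrays lay far below the others, at -0.93 ± 0.05 from mock (adjusted p = 3.91e-07), and let-7c was 0.16 ± 0.05 above mock (adjusted p = 0.0482). The direct difference was 1.09 ± 0.05 (adjusted p = 6.4e-08). The fusion genes Opa1 and Mfn1 fell with both mimics, at -0.15 ± 0.05 (adjusted p = 0.0314) and -0.14 ± 0.05 (adjusted p = 0.0338) with let-7c and -0.23 ± 0.05 (adjusted p = 0.002) and -0.22 ± 0.05 (adjusted p = 0.0022) with miR-294.

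Of 12 glycolysis genes, 5 rose and 1 fell with miR-294 (median 0.16) and 2 rose and 2 fell with let-7c (median 0.05). With miR-294 the largest rises were in Hk2 (0.29 ± 0.06, adjusted p = 0.00185), Pgam1 (0.25 ± 0.04, adjusted p = 0.000715) and Aldoa (0.22 ± 0.07, adjusted p = 0.0257), and Pfkp fell (-0.22 ± 0.07, adjusted p = 0.0264). With let-7c the largest changes were in Tpi1 (0.25 ± 0.06, adjusted p = 0.012), Slc2a3 (-0.24 ± 0.05, adjusted p = 0.00322) and Ldha (0.23 ± 0.07, adjusted p = 0.0236).

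The promoters of the members were searched for the short motifs of regulators known for nuclear respiratory genes. The window was 300 bases, 250 before and 50 after the start given by RefSeq for GRCm38.p6, and 77 member genes had at least 1 window, 82 windows in all. The motifs were the NRF-1 core GCGCATGC, the ETS core CCGGAAGT that GABPA binds and the YY1 core AAGATGGC, on either strand. The NRF-1 core and its reverse GCATGCGC overlap where they form a palindrome, and such a window was counted once. The NRF-1 core was in 12 member windows (14.6%), against 2.71% of all RefSeq windows and 4.91% of those of the genes tested. The YY1 core was in 10 (12.2%), against 2.75% and 4.12%, and the ETS core in 5 (6.1%), against 3.89% and 7.24%. These shares describe the windows and carry no test.

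Called higher with miR-294 were 4 of the 12 member genes with the NRF-1 core, 4 of the 5 with the ETS core and 6 of the 10 with the YY1 core. Over the 26 genes with any motif it was 13, and over the 51 with none 22. The promoters shown are those of the member with the largest called rise with miR-294 among those with the NRF-1 core (Ndufaf4), the ETS core (Uqcr11, which also has the NRF-1 core) and the YY1 core (Ndufs6), and of the member with any motif that fell most with let-7c (Uqcrc1). Each is printed in the direction of the gene, with the motif in capitals. Positions count from the annotated start, which is 0.
Ndufaf4 promoter: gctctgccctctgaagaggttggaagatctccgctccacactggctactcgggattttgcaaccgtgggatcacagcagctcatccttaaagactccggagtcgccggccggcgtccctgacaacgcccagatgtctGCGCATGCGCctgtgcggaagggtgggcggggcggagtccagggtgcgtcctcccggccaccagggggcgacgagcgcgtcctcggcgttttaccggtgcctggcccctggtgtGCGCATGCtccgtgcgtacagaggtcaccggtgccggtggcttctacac
Uqcr11 promoter: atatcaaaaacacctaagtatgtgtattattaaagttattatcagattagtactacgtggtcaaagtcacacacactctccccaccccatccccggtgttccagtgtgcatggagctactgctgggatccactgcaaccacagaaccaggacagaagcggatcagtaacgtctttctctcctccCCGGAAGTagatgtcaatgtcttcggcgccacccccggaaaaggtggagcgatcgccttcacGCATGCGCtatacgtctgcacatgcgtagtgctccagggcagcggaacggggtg
Ndufs6 promoter: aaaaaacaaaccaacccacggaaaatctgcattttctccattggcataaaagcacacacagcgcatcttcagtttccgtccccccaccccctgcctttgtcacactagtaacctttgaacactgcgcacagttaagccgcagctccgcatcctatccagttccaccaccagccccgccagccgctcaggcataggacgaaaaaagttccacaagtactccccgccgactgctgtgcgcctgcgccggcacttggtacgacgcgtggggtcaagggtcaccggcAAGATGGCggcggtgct
Uqcrc1 promoter: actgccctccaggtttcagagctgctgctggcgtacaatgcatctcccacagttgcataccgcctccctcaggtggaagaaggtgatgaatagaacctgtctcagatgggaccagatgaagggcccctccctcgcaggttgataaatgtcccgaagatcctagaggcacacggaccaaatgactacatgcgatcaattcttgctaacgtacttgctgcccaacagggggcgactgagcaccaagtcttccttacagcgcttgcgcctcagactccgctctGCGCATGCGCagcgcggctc
The window of Ndufaf4 is chr4:24897833-24898132 on the plus strand. It holds the NRF-1 core at -113 and at 1, and the reverse core at -111 overlaps the first. The window of Uqcr11 is chr10:80406772-80407071 on the minus strand, with the ETS core at -66 and the reverse NRF-1 core at -4. The window of Ndufs6 is chr13:73328433-73328732 on the minus strand, with the YY1 core at 33. The window of Uqcrc1 is chr9:108936398-108936697 on the plus strand, with the NRF-1 core at 30 and its reverse at 32, which overlap. A match describes the letters of the window and not a bound site.

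Probe sets of the same gene were compared where there were several. This was so for 18 members, and in none of them did probe sets carry opposite calls in any of the 3 comparisons. Calls differed, in that a probe set passed and a further one did not, for 3 members with let-7c, 5 with miR-294 and 2 in the direct comparison. The 3 were Atp5g2, Cox7a2l and Ndufa11, the 5 were Atp5g2, Atp5l, Ndufa11, Sdhaf4 and Uqcr11, and the 2 were Cox7a2l and Uqcrb. Respiratory chain genes have many processed pseudogenes, and signal from such copies cannot be told apart from that of the gene on these probe sets. Levels of different members were not compared, because probe sets differ in brightness for the same amount of RNA. The levels given for the cell type markers have the same limit.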

How the data were processed

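RNA of 9 samples, 3 per group, was measured on 1-colour arrays, and the authors deposited log2 intensities per probe set, normalized with GCRMA per the submitters' processing notes. The log2 scale was read from the values (2.54 to 14.975); array medians were 7.364 to 7.414. Of 35557 probe sets, 21789 carried 1 gene symbol, 1621 several and 12147 none, and each gene was read from its brightest probe set with 1 symbol. Genes above the 40th percentile of their array on at least 3 arrays were tested with limma 3.58.1 (lmFit, eBayes) in R 4.3.3, over all groups together, with Benjamini-Hochberg adjustment over the 13182 genes tested and a threshold of 0.05. The number of arrays limits the precision.

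The members and lists were chosen with earlier results of these data known. Named were, per role and comparison, up to 4 called members with the largest rise and up to 4 with the largest fall, members called oppositely by the mimics, and preset subunits and isoforms; from other lists, up to 3 called genes of largest change. Other genes named, such as Nrf1, Cyc1 and Sdhc, were chosen after their values were seen. Equal replicate numbers were checked as a pairing. Deviations from the group means correlated with those of the same-numbered mock array at 0.418, 0.301 and 0.133 for let-7c and 0.363, 0.272 and 0.283 for miR-294. With differently numbered mock arrays they gave -0.361 to 0.149 for let-7c and -0.218 to -0.0482 for miR-294. The deviations of a group sum to 0, so a positive value for the same number pulls the others down. The differently numbered values are therefore no independent contrast. The pairing comes from the numbers in the sample titles. Scripts were tested on simulated data. Sequences came from RefSeq tables. Alternatives were quantile normalization, 75th percentile centring, other filters, other rules for probe sets, an intensity trend, fits of 2 groups only, a replicate block and leaving out each array.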

Additional observations from a re-analysis of the deposited data

How the results depend on the processing

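With the replicate number as a block, members called higher and lower were 14 and 8 with let-7c, 45 and 1 with miR-294 and 3 and 39 directly, and no call was lost. Of the genes that the naming rule gave for each comparison, the block changed the call of 1, Cox4i2 (adjusted p = 0.0249 with miR-294 and 0.0436 directly). Other members gained calls as well and are not listed. Same-numbered let-7c and miR-294 arrays correlated at 0.215, 0.248 and 0.0285, and differently numbered ones at -0.257 to 0.071, which again are not independent of each other. With no filter the let-7c counts were 5 higher and 3 lower; leaving out single arrays gave 4 to 11 and 3 to 7. The count lower with miR-294 was 0 after quantile normalization, 75th percentile centring or no filter, and 0 to 1 leaving out single arrays. The count higher with miR-294 was then 27 to 42, and directly 2 to 5 were higher and 25 to 33 lower.

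After quantile normalization the let-7c medians were -0.04 for complex I core, 0.03 for complex II and 0.10 for complex IV. The direct medians were then -0.07 for all members, -0.12 for complex I core, -0.04 for complex II, 0.02 for complex IV and -0.03 for complex V. After 75th percentile centring the miR-294 medians were 0.08 for complex I core and 0.07 for complex II, and the direct median of complex II was -0.11. The miR-294 median of complex IV was 0.08 with no filter and 0.06 with the stricter filter. Complex II assembly factors had let-7c medians of 0.10 with the stricter filter, -0.07 with the mean of probe sets and -0.08 with every probe set tested. Their miR-294 medians were 0.24 and 0.13 under the first 2 of these, and the direct median was -0.08 with every probe set tested. Leaving out single arrays gave complex I assembly medians of -0.29 to -0.20 directly, -0.16 to -0.06 with let-7c and 0.10 to 0.15 with miR-294, complex II medians of 0.03 to 0.07 with miR-294 and complex IV medians of -0.07 to 0.01 directly. The cause was not tested. No named gene reversed its direction while called.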
